A study of Homo sapiens with 12 samples.

Results

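Collagen chain genes encode the alpha chains of the collagens, and the 44 genes described here were taken from the 60835 gene symbols of the deposited count tables by name alone: COL, a number, A and a number. Their RNA was measured in LNCaP, a human prostate adenocarcinoma line derived from a lymph node metastasis, by sequencing polyadenylated RNA in 12 libraries. The cells had received an shRNA against FOXA1, an shRNA against TRIM28, or a control shRNA, and each knockdown had a control group of its own. Each of the 4 groups (FOXA1 control, FOXA1 knockdown, TRIM28 control and TRIM28 knockdown) held 3 replicates, numbered 1 to 3, which the series design calls biological without saying whether they were separate cultures. Every group, the controls included, thus carried an shRNA. FOXA1 is a forkhead transcription factor that opens chromatin in prostate cells. TRIM28 (KAP1) silences chromatin at sites to which KRAB zinc finger proteins bring it. The sources used here do not give how long after the shRNA the cells were collected, how many shRNA sequences were used or whether the cells were a pool or a clone.

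Collagen chains are made in the endoplasmic reticulum, where proline and lysine residues are hydroxylated and chains of matching types are wound into a helix. After secretion, fibrillar collagens are trimmed by proteases and cross-linked into fibrils, collagen IV builds the sheet of basement membranes, collagen VI forms beaded filaments near cells, and a few transmembrane collagens stay in the cell surface. Fibroblasts make most of the fibrillar collagen of the prostate, whereas epithelial cells contribute basement membrane and transmembrane collagens.

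The 12 libraries held between 12256092 and 15152890 counts. FOXA1 RNA in its knockdown stood at 29.3%, 28.6% and 29.2% of the mean of its controls. TRIM28 RNA in its knockdown stood at 31.6%, 28% and 13.6% of the mean of its controls in replicates 1, 2 and 3. FOXA1 RNA in the same 3 libraries was at 46.8%, 42.3% and 68.3% of control. The 8 luminal markers used for LNCaP (KLK2, KLK3, TMPRSS2, FOLH1, HOXB13, KRT8, KRT18 and STEAP2) had counts in every library, and their summed level ran from 2164 to 3010.2 CPM in 11 libraries. CPM are counts scaled by the library totals after TMM adjustment. Replicate 3 of the TRIM28 knockdown stood apart: the chi-square per degree of freedom between it and its 2 fellow replicates was 22.6 and 20.4, against 2.94 to 5.73 for all other pairs within groups. Its values are therefore given separately for many collagen chain genes and for some genes that act on collagen. The counts of genes called in the TRIM28 knockdown are given with and without that replicate. Of the 44 genes, 20 overlap a gene on the opposite strand in GENCODE release 29, among them COL5A2, COL3A1, COL1A2, COL5A1, COL24A1, COL4A1, COL4A2, COL4A3, COL4A5, COL4A6, COL9A3, COL16A1, COL18A1, COL23A1 and COL26A1. The strand setting of the counting is not given, so reads of such partners cannot be told apart.

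In LNCaP cells with control shRNA the collagen RNA came mainly from 5 genes. On the FPKM scale, which divides by gene length so that genes can be compared, COL6A2 stood at 13.4 ± 0.61 (SD, n = 6 controls), COL4A5 at 12.8 ± 0.65, COL6A1 at 8.46 ± 0.85, COL1A1 at 4.18 ± 0.29 and COL5A2 at 3.22 ± 0.23. COL6A2 and COL4A5 differed by less than their spread, and each of the other 3 was below the lowest control value of the gene before it. COL6A1 and COL6A2 encode partner chains of collagen VI, COL4A5 a basement membrane chain, COL1A1 the main chain of type I fibrils, and COL5A2 a chain of the type V fibrils that limit the width of type I fibrils. These 5 genes held 79.2% of the summed collagen FPKM. COL9A3 (1.85 ± 0.21), COL16A1 (1.67 ± 0.45) and COL26A1 (1.61 ± 0.22) followed, with overlapping ranges, and 8 of the 44 genes in all exceeded a mean of 1 FPKM. COL3A1 and COL1A2, the other main chains of fibroblast fibrils, were at 0.447 ± 0.17 and 0.397 ± 0.079 FPKM. No library lacked collagen RNA, and no member was at 0 in all 12 libraries. Collagen genes together took 0.0255% to 0.0390% of the counts in 11 libraries.

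**Figure D1:**
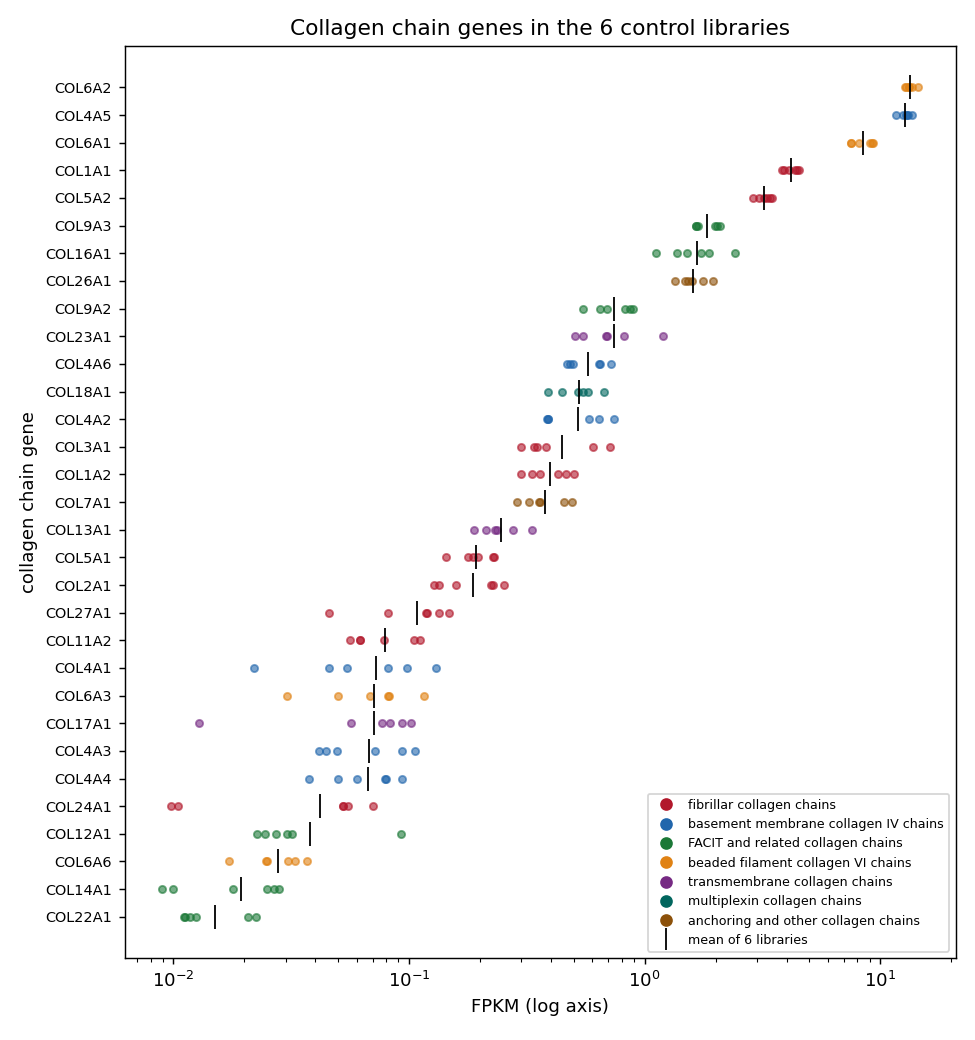
FPKM (log axis) of the 31 collagen chain genes with counts in all 6 control libraries, ordered by their mean; points are libraries, coloured by collagen class, and the bar is the mean. COL6A2, COL4A5 and COL6A1 lie above 7 FPKM in each control, while 23 of the 31 genes have a mean below 1 FPKM.

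Upstream sequence is shown for 3 members that differed in level or in their calls in the comparisons that follow: COL4A5, COL6A2 and COL17A1. COL4A5 was abundant and called higher in the TRIM28 knockdown, and COL6A2 was abundant and called higher in both knockdowns. COL17A1 was low in the controls and called higher in the FOXA1 knockdown. Its TRIM28 knockdown libraries were also all above their controls, and it passed there when replicate 3 was left out. The sequences are from RefSeq, build GRCh38.p14, 5′ to 3′ on the gene's strand, cut so that each ends before the first annotated exon base. Capitals mark TATAAA, as in a TATA box, and GGGCGG, the GC box bound by SP family factors, on either strand (GGGCGG appears as CCGCCC where it lies on the other strand).
COL4A5, chrX:108439588-108439837, plus strand: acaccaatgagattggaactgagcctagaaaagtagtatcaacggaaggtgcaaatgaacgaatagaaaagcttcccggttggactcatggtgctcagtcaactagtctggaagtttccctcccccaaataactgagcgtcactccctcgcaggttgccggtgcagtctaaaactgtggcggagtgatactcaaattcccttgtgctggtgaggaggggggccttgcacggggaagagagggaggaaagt
COL6A2, chr21:46097862-46098096, plus strand: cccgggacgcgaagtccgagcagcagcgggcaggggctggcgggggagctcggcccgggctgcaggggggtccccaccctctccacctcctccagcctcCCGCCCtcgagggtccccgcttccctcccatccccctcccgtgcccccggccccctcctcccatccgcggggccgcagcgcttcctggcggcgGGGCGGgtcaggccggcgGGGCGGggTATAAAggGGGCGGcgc
COL17A1, chr10:104085958-104086130, minus strand: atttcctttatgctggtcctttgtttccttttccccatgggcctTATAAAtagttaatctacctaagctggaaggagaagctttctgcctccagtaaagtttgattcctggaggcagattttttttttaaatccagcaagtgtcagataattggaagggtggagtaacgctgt
The COL6A2 stretch is 79.6% G and C and holds TATAAA beginning 32 bases before the start site, between GC boxes at 40 and 24 bases before it. The COL17A1 stretch is 40.5% G and C, with TATAAA 206 bases before the start, and the COL4A5 stretch, 51.2% G and C, holds none of the motifs.

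Promoters of 32 of the 44 genes, 44 windows of 300 bases, were found in the RefSeq table and searched on both strands. TATAAA occurred in 8 of the 44 windows, belonging to COL10A1, COL13A1, COL17A1, COL18A1, COL6A2, COL6A6 and COL7A1, against 11.5% of 35116 human promoters. GGGCGG occurred in 24 of the 44, against 45.0% of all promoters. TGTTTAC, a core forkhead motif, occurred in 0 of the 44 windows, against 3.42% of all promoters. A match is only a match of letters. The 6 collagen IV genes start back to back in pairs: COL4A1 and COL4A2 with 126 bases between their starts, COL4A4 and COL4A3 with 418, and COL4A6 and COL4A5 with 379. Other members are neighbours, with COL3A1 and COL5A2 on opposite strands of chromosome 2, 19151 bases apart, and COL6A1 and COL6A2 on the same strand of chromosome 21, 93061 bases apart.

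Knockdown of FOXA1 was compared with its control to ask which genes FOXA1 regulates in these cells. The clearest fall was COL5A2 and the clearest rise COL17A1, the hemidesmosome collagen that anchors epithelial cells to the basement membrane. All 3 tested transmembrane collagen genes rose, as did the collagen VI genes COL6A1 and COL6A2 and the basement membrane genes COL4A3, COL4A4 and COL18A1. COL7A1, whose product forms anchoring fibrils beneath the basement membrane, and COL9A2 fell. Of the 44 genes, 24 had enough counts to be tested, and 9 were higher and 3 lower at an adjusted p below 0.05 (edgeR's quasi-likelihood F-test, Benjamini-Hochberg over all 14953 genes tested). These 12 of 24 tested members stand against 52.4% of all tested genes, of which 26.1% were higher and 26.3% lower, so the share of collagen genes called was near the background. The median log2 fold change was 0.41 over the tested members and -0.02 over all tested genes. High counts in the knockdown alone can bring a gene into the test, so neither the count nor the median describes all 44 genes.

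COL5A2 (GRCh38 chr2:189031898-189225312, minus strand) fell in all replicates. It measured 21.5, 23.1 and 24.4 CPM in the FOXA1 controls and 3.31, 3.74 and 3.13 CPM in the knockdown replicates 1, 2 and 3. The groups did not overlap, and the knockdown replicates lay close together. The log2 fold change was -2.76 ± 0.14 (SE, adjusted p = 5.5e-16, edgeR). The partner chain COL5A1 had a log2 fold change of 0.46 ± 0.29 and did not pass (adjusted p = 0.191). The ratio of COL5A1 to COL5A2 on the FPKM scale was 0.0512 to 0.0692 in the FOXA1 controls and 0.528 to 0.607 in the knockdown, without overlap. Among the other fibrillar genes, COL24A1, a minor fibrillar chain, was at 0.369, 0.0683 and 0.386 CPM in the controls and 1.08, 0.915 and 0.997 CPM in the knockdown. It rose by a log2 fold change of 1.86 ± 0.54 (adjusted p = 0.00458, edgeR) from 1 to 5 counts per control library, and the call was lost in 1 fit of all 12 libraries (adjusted p = 0.0582). COL1A1 (0.14 ± 0.09), COL1A2 (-0.23 ± 0.29), COL3A1 (0.40 ± 0.55) and COL27A1 (0.53 ± 0.42) had overlapping groups and did not pass.

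The transmembrane genes came up from low levels. COL17A1 (chr10:104031286-104085880, minus strand, its upstream TATAAA marked above) measured 0.443, 0.478 and 0.540 CPM in the FOXA1 controls and 7.23, 5.49 and 9.47 CPM in the knockdown. Every knockdown replicate exceeded every control, and the log2 fold change was 3.91 ± 0.30, a 15-fold rise (adjusted p = 5.53e-12, edgeR). COL13A1, a transmembrane collagen of cell contacts, measured 0.812, 0.819 and 1.16 CPM in the controls and 2.97, 1.98 and 2.78 CPM in the knockdown. The groups did not overlap, and its log2 fold change was 1.47 ± 0.33 (adjusted p = 0.00041, edgeR). COL23A1, whose outer domain is shed from the cell, measured 2.44, 1.5 and 3.55 CPM in the controls and 4.46, 4.20 and 4.91 CPM in the knockdown, again without overlap. Its log2 fold change was 0.87 ± 0.25 (adjusted p = 0.00493, edgeR). The fourth transmembrane gene, COL25A1, had between 0 and 2 counts in these 6 libraries and was not tested.

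The 2 abundant collagen VI genes rose moderately from a high level. COL6A1 (chr21:45981770-46005050, plus strand) measured 39.3, 32.3 and 32.6 CPM in the FOXA1 controls and 59.8, 63.7 and 55.2 CPM in the knockdown, for a log2 fold change of 0.78 ± 0.08 (adjusted p = 2.78e-09, edgeR). COL6A2 (chr21:46098112-46132848, plus strand) measured 46.9, 50.9 and 45.1 CPM in the controls and 64.6, 67.1 and 63.6 CPM in the knockdown, for a log2 fold change of 0.45 ± 0.07 (adjusted p = 2.66e-06, edgeR). Neither gene's groups overlapped. COL6A3, the large partner chain of collagen VI, had 0.894 ± 0.36 CPM (SD, n = 3) in the controls and a log2 fold change of 0.15 ± 0.41, which did not pass.

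Of the 6 collagen IV genes, the back-to-back pair COL4A3 and COL4A4, chains of specialised basement membranes, was the one called. COL4A4 measured 0.812, 0.615 and 0.386 CPM in the FOXA1 controls and 1.49, 2.21 and 1.78 CPM in the knockdown, with a log2 fold change of 1.57 ± 0.39 (adjusted p = 0.00126, edgeR). COL4A3 measured 0.369, 0.341 and 0.771 CPM in the controls and 1.01, 1.3 and 0.855 CPM in the knockdown, with a log2 fold change of 1.09 ± 0.46 (adjusted p = 0.0495, edgeR). The groups of neither gene overlapped, but COL4A3 was called by a narrow margin and lost the call when any library but replicate 3 of the control was left out (adjusted p from 0.0598 to 0.175) or with DESeq2 (adjusted p = 0.126). The other 2 pairs behaved otherwise: COL4A5 (-0.03 ± 0.06), COL4A6 (-0.43 ± 0.24) and COL4A2 (-0.00066 ± 0.25) had overlapping groups and did not pass, and COL4A1 was not tested. COL18A1, a basement membrane collagen whose end fragment is endostatin, measured 3.91, 3.00 and 2.62 CPM in the controls and 5.88, 4.81 and 4.06 CPM in the knockdown. Its log2 fold change was 0.63 ± 0.22 (adjusted p = 0.0186, edgeR), and the call was lost without replicate 1 of the knockdown (adjusted p = 0.115) or replicate 3 of the control (adjusted p = 0.071), and in 1 fit of all 12 libraries (adjusted p = 0.0931).

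Besides COL5A2, 2 tested genes were called lower. COL7A1 measured 3.10, 2.73 and 4.32 CPM in the FOXA1 controls and 1.82, 1.98 and 1.42 CPM in the knockdown, with a log2 fold change of -0.95 ± 0.27 (adjusted p = 0.00448, edgeR). COL9A2, a chain of the fibril-associated collagen IX, measured 2.66, 1.91 and 1.62 CPM in the controls and 1.08, 0.992 and 1.35 CPM in the knockdown. The groups of both genes were separate. The log2 fold change of COL9A2 was -0.85 ± 0.33 (adjusted p = 0.033, edgeR), and its adjusted p was 0.194 and 0.0527 without replicate 1 or 2 of the control and 0.0927 and 0.108 without replicate 1 or 2 of the knockdown. It was 0.0858 with DESeq2 and 0.0713 without the count filter. Its partner COL9A3 had a log2 fold change of 0.42 ± 0.18 and did not pass (adjusted p = 0.0547), nor did COL16A1 (0.38 ± 0.16, adjusted p = 0.0506) or COL26A1 (-0.34 ± 0.21, adjusted p = 0.175). COL2A1 had too few counts for this test. It was at 0.664 to 1.16 CPM in the controls and 0.0763 to 0.338 CPM in the knockdown, and was called without the count filter. Without regard to the test, 11 of the 24 tested members had every knockdown library above every control library and 4 had every one below, where 29.3% of all tested genes were separated upward and 29.1% downward, 58.4% in all.

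**Figure D2:**
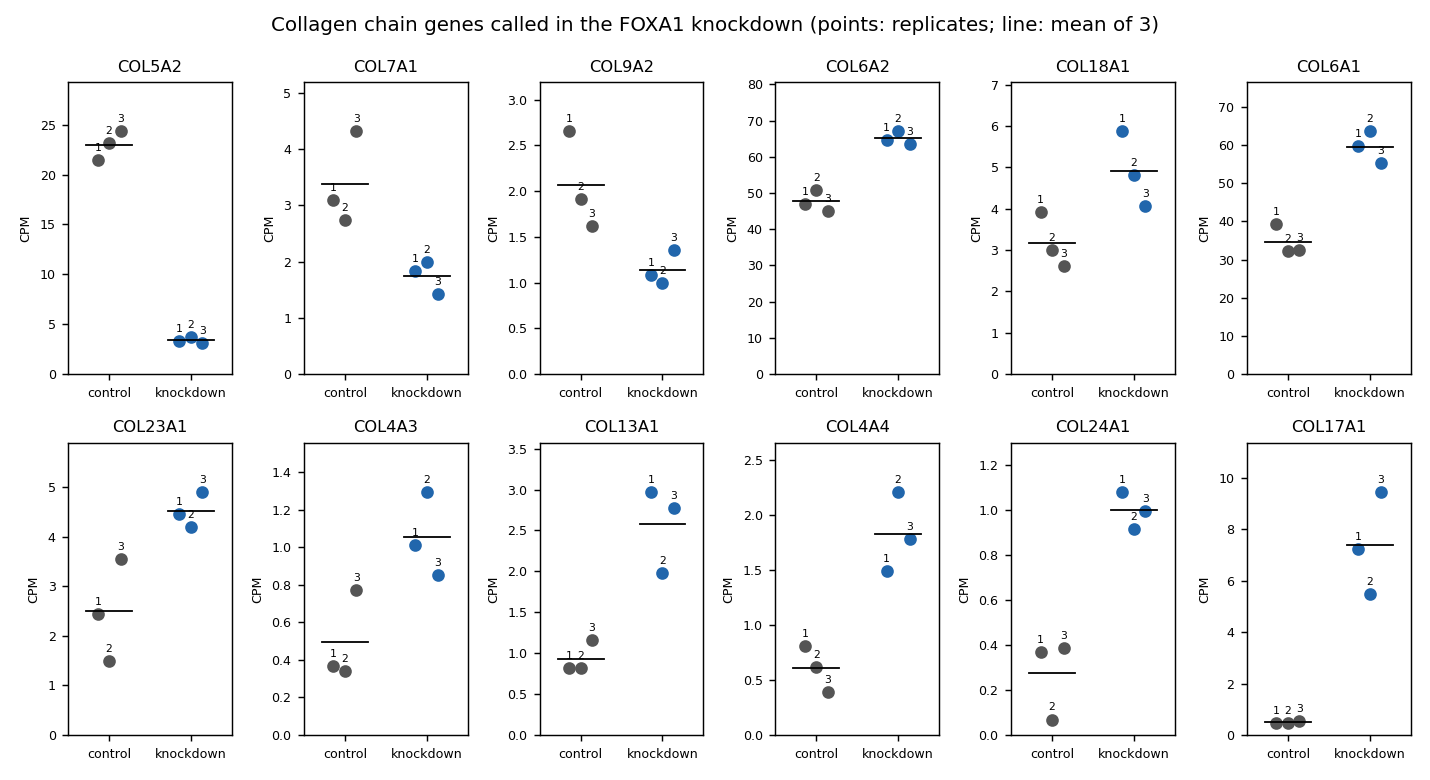
CPM (linear axes from 0) of the 12 collagen chain genes called in the FOXA1 knockdown, with points numbered by replicate and a line at the mean of 3. COL5A2 drops from above 21 to below 4 CPM and COL17A1 climbs from below 1 to above 5 CPM, while COL4A3 and COL18A1 show the narrowest gaps between groups among the genes that rose.

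Knockdown of TRIM28 was compared with its own control in the same way, and here the replicates have to be read one by one. Across the 3 replicates 5 of 23 tested members were called, all higher: COL6A1, COL6A2, COL4A5, COL13A1 and COL27A1, a minor fibrillar chain. Replicates 1 and 2 shared large shifts in COL5A2, COL24A1 and COL17A1 that replicate 3 did not show or exceeded, and replicate 3 held the highest levels of COL1A1, COL1A2 and COL3A1 by far. The 5 calls are 21.7% of the tested members, against 26.7% of the 14981 genes tested, of which 13.3% were higher and 13.3% lower. Of all called genes 49.9% were higher, or 63.4% when libraries were scaled by their totals without TMM. The median log2 fold change was 0.67 over the tested members and 0.00 over all tested genes. Without replicate 3 it was 0.38 over 25 tested members and -0.01 over all tested genes. High counts in the knockdown alone can bring a gene into these tests too. Of the 23 members tested across the 3 replicates, 8 were separated upward and 3 downward without a test. Of all tested genes 19.8% were separated upward and 23.7% downward, 43.5% in all.

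COL6A1 and COL6A2 were the members with the steadiest response. COL6A1 measured 37.7, 40.7 and 34.9 CPM in the TRIM28 controls and 65.3, 59.5 and 72.7 CPM in knockdown replicates 1, 2 and 3. COL6A2 measured 45.7, 47.3 and 45.3 CPM in the controls and 76.7, 73.6 and 69.8 CPM in the knockdown. All 3 knockdown replicates exceeded all controls for both genes, replicate 3 among them. The log2 fold changes were 0.83 ± 0.11 for COL6A1 (adjusted p = 0.000909, edgeR) and 0.70 ± 0.09 for COL6A2 (adjusted p = 0.000786, edgeR). Both kept their calls whichever of the 6 libraries was left out. The difference from the effect of the FOXA1 knockdown was -0.04 ± 0.14 for COL6A1 and -0.24 ± 0.10 for COL6A2 on the log2 scale, and neither passed (adjusted p = 0.906 and 0.161, edgeR).

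The other 3 calls rested on less. COL4A5 measured 86.1, 84.6 and 87.4 CPM in the TRIM28 controls and 128, 129 and 88.1 CPM in the knockdown. Replicates 1 and 2 were far above the controls and replicate 3 was just above the highest of them. Its log2 fold change was 0.44 ± 0.13 (adjusted p = 0.0335, edgeR), and leaving out any 1 library other than knockdown replicate 3 took the adjusted p to between 0.106 and 0.13. COL27A1 measured 1.12, 0.965 and 0.653 CPM in the controls and 1.97, 1.60 and 3.89 CPM in the knockdown, with a log2 fold change of 1.45 ± 0.43 (adjusted p = 0.0306, edgeR). COL13A1 measured 0.907, 0.668 and 0.735 CPM in the controls and 1.39, 1.44 and 2.33 CPM in the knockdown, with a log2 fold change of 1.17 ± 0.38 (adjusted p = 0.046, edgeR). The groups of both genes were separate. COL13A1 lost its call without any 1 of the 6 libraries (adjusted p from 0.0656 to 0.15) and with DESeq2 (adjusted p = 0.0748), and COL27A1 without any 1 control (adjusted p from 0.0772 to 0.12) or without knockdown replicate 3 (adjusted p = 0.0712).

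Other members had large fold changes in some knockdown replicates and were not called across the 3, or not tested. COL17A1 measured 0.0698, 0.594 and 0.327 CPM in the TRIM28 controls and 2.19, 2.74 and 25.2 CPM in the knockdown, for a log2 fold change of 4.94 ± 1.46 (adjusted p = 0.0595, edgeR). All knockdown libraries were above all controls, and replicate 3 was 9.20-fold above the higher of the other 2. COL17A1 passed without knockdown replicate 1 or 2 as well (adjusted p = 0.0317 and 0.0408, edgeR). COL5A2 measured 22.5, 20.4 and 22.3 CPM in the controls and 5.78, 6.46 and 17.6 CPM in the knockdown, with a log2 fold change of -1.10 ± 0.40 (adjusted p = 0.0783, edgeR). Here replicates 1 and 2 were low and replicate 3 lay near the controls. COL24A1 was not tested across the 3 replicates: it measured 0.349, 0.0743 and 0.490 CPM in the controls and 3.07, 2.81 and 0.389 CPM in the knockdown, with replicate 3 inside the range of the controls.

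The fibril genes COL3A1, COL1A2, COL1A1 and COL5A1 were far higher in replicate 3 than in any other library. COL3A1 measured 2.02, 1.93 and 1.96 CPM in the TRIM28 controls and 2.12, 6.23 and 180 CPM in the knockdown. COL1A2 measured 2.09, 2.67 and 2.04 CPM in the controls and 1.68, 4.26 and 82.6 CPM in the knockdown. COL1A1 measured 25.8, 23.5 and 24.7 CPM in the controls and 23.9, 25.7 and 124 CPM in the knockdown. Replicate 1 was within or close to the controls for these 3 genes, replicate 2 was above them for COL3A1 and COL1A2, and replicate 3 was the highest of all 12 libraries. COL5A1 measured 1.60, 1.26 and 1.96 CPM in the controls and 3.66, 2.74 and 25.3 CPM in the knockdown. Over 3 replicates the log2 fold changes were 5.02 ± 2.21 for COL3A1, 3.72 ± 1.81 for COL1A2, 1.26 ± 0.78 for COL1A1 and 2.74 ± 1.01 for COL5A1, and none passed (adjusted p = 0.177, 0.211, 0.303 and 0.101, edgeR). COL5A1 passed without knockdown replicate 2, at 3.20 (adjusted p = 0.036), and with DESeq2 (adjusted p = 0.0257).

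The remaining tested members did not pass by edgeR either. Their log2 fold changes were 1.75 ± 0.70 for COL12A1, a fibril-associated collagen, 0.90 ± 0.73 for COL4A6, 0.67 ± 0.38 for COL4A2, 0.46 ± 0.32 for COL18A1, 0.38 ± 0.66 for COL2A1, the cartilage fibril chain, 0.31 ± 0.17 for COL16A1, 0.12 ± 0.49 for COL4A4 and 0.04 ± 0.21 for COL9A3. They were -0.74 ± 0.38 for COL23A1, -0.56 ± 0.30 for COL9A2, -0.17 ± 0.26 for COL26A1 and -0.13 ± 0.24 for COL7A1. COL12A1 passed with DESeq2 (adjusted p = 0.0467), without the count filter (0.00472) and in 1 fit of all 12 libraries (0.0265). Of these members, COL23A1 and COL9A2 had all knockdown libraries below all controls.

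**Figure D3:**
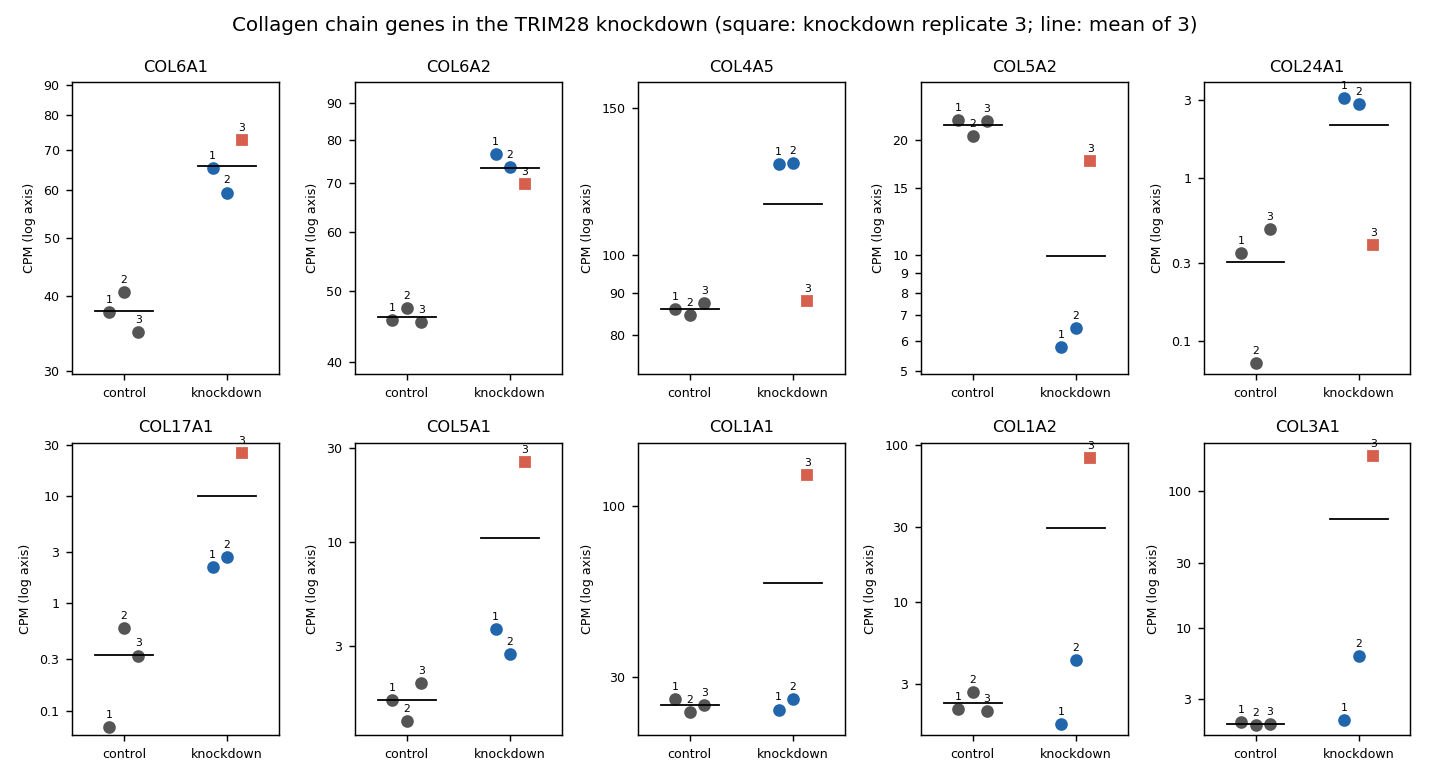
CPM (log axes, each with its own range) of 10 collagen chain genes in the TRIM28 controls and knockdown; circles are replicates, the square is knockdown replicate 3 and the line is the mean of 3. Replicate 3 sits with replicates 1 and 2 for COL6A1 and COL6A2, near the controls for COL4A5, COL5A2 and COL24A1, and far above all others for COL17A1, COL5A1, COL1A1, COL1A2 and COL3A1.

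Without replicate 3 the TRIM28 knockdown gave 8 higher and 1 lower among 25 tested members, 36.0% of them, against 45.0% of 15475 genes tested (21.5% higher and 23.5% lower). Counted without a test, 10 of the 25 were separated upward and 4 downward, where 61.6% of all tested genes were separated, 29.8% upward and 31.8% downward. COL5A2 then fell by 1.82 ± 0.16 on the log2 scale (adjusted p = 3.21e-12, edgeR, 2 knockdown and 3 control libraries). COL24A1 rose by 3.26 ± 0.50 (adjusted p = 1.04e-06) and COL17A1 by 2.90 ± 0.52 (adjusted p = 1.61e-05, edgeR). COL6A1 (0.74 ± 0.09), COL6A2 (0.72 ± 0.08) and COL4A5 (0.59 ± 0.07) rose, each with an adjusted p of 1.02e-08 or smaller. COL3A1 (1.09 ± 0.35, adjusted p = 0.0126, edgeR), COL5A1 (1.01 ± 0.34, adjusted p = 0.0133) and COL16A1 (0.38 ± 0.16, adjusted p = 0.048) passed as well. COL27A1 (0.96 ± 0.44) and COL13A1 (0.88 ± 0.47) no longer did. COL1A1 (0.02 ± 0.11) and COL1A2 (0.39 ± 0.34) stood near the controls, and COL4A6 (-0.46 ± 0.29) and COL2A1 (-0.95 ± 0.55) changed sign without passing. COL4A3, tested here alone, was at 0.81 ± 0.54 and did not pass. Leaving out a library also eases the count filter, so 2 of these 25 genes, COL24A1 and COL4A3, were not among the 23 tested before.

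Replicate 3 was then described against the 3 controls pooled, as 1 library that cannot be tested as a group. Intervals are exact 95% intervals of the ratio and cover counting error only. COL3A1 stood at 91.4-fold the pooled controls (73.1 to 116), from 2320 counts in replicate 3 against 79 in the 3 controls. COL1A2 was at 36.3-fold (29.3 to 45.5), COL5A1 at 15.8-fold (12.1 to 21) and COL1A1 at 5.03-fold (4.64 to 5.45). COL3A1, COL1A2 and COL1A1 encode the main chains of fibroblast fibrils, and COL5A1 a chain of type V fibrils. The partner chain of COL5A1, COL5A2, was below the pooled controls, at 0.808 (0.695 to 0.936). COL17A1 was at 77.6-fold (44.7 to 147). The cartilage-type fibril chain COL11A1 had 122 counts in replicate 3 and 3 in the pooled controls, a ratio of 127 (42.3 to 622).

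Genes of other collagen classes were high there too. The fibril-associated COL14A1 was at 44.8-fold (18.3 to 142) and COL12A1 at 6.75-fold (4.08 to 11.4). Among filament and basement membrane chains, COL6A6 was at 19.3-fold (9.82 to 42.2), COL15A1 at 11.3-fold (5.03 to 28.6), COL4A1 at 8.91-fold (5.41 to 15.2), COL6A3 at 6.71-fold (4.14 to 11.1), COL4A6 at 4.09-fold (3.31 to 5.05) and COL4A2 at 2.56-fold (2.00 to 3.28). COL8A1, a network collagen of vessels and cornea, was at 9.73-fold (4.25 to 25.0), and the transmembrane COL25A1 at 8.01-fold (3.19 to 22.7). COL21A1 had 21 counts against 1 in the controls, a ratio of 65.4 whose interval began at 10.5. COL11A2 was at 4.20-fold (2.27 to 7.90), COL2A1 at 2.83-fold (1.80 to 4.44) and COL18A1 at 2.07-fold (1.60 to 2.67). The interval lay above 1 for 25 of the 44 genes, against 15.4% of the 38196 symbols with a count in any library, and for 14 of the 23 tested members, against 26.6% of all tested genes. It lay below 1 for 3, all tested, against 13.6% of symbols with a count and 33.2% of tested genes: COL5A2 (0.808, 0.695 to 0.936), COL26A1 (0.598, 0.413 to 0.846) and COL23A1 (0.332, 0.138 to 0.689). COL4A5 was at 1.02-fold (0.957 to 1.10) and COL7A1 at 0.955-fold (0.671 to 1.34).

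Replicate 3 was the highest of the 3 TRIM28 knockdown libraries for 33 of the 44 genes and the lowest for 8. It was the highest of all 12 libraries for 27 of the 44, against 16.3% of the 38196 symbols with a count, and for 12 of the 23 tested members, against 12.8% of all tested genes. It was more than 2-fold above both other knockdown replicates for 24 of the 44 genes. That held for 8.44% of all 60835 symbols, of which 38196 had a count in any library. The 24 include COL6A5, COL5A3 and COL9A1, at only 1, 2 and 3 counts in replicate 3. Among tested members 10 of 23, or 43.5%, were more than 2-fold above both, against 1.95% of all tested genes. Replicate 3 was the highest knockdown library for 69.6% of tested members against 38.8% of all tested genes. Collagen genes took 0.0840% of its counts, 10296 in number, and their FPKM summed to 155.5, against 51.4 to 80.6 in the other 11 libraries.

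**Figure D4:**
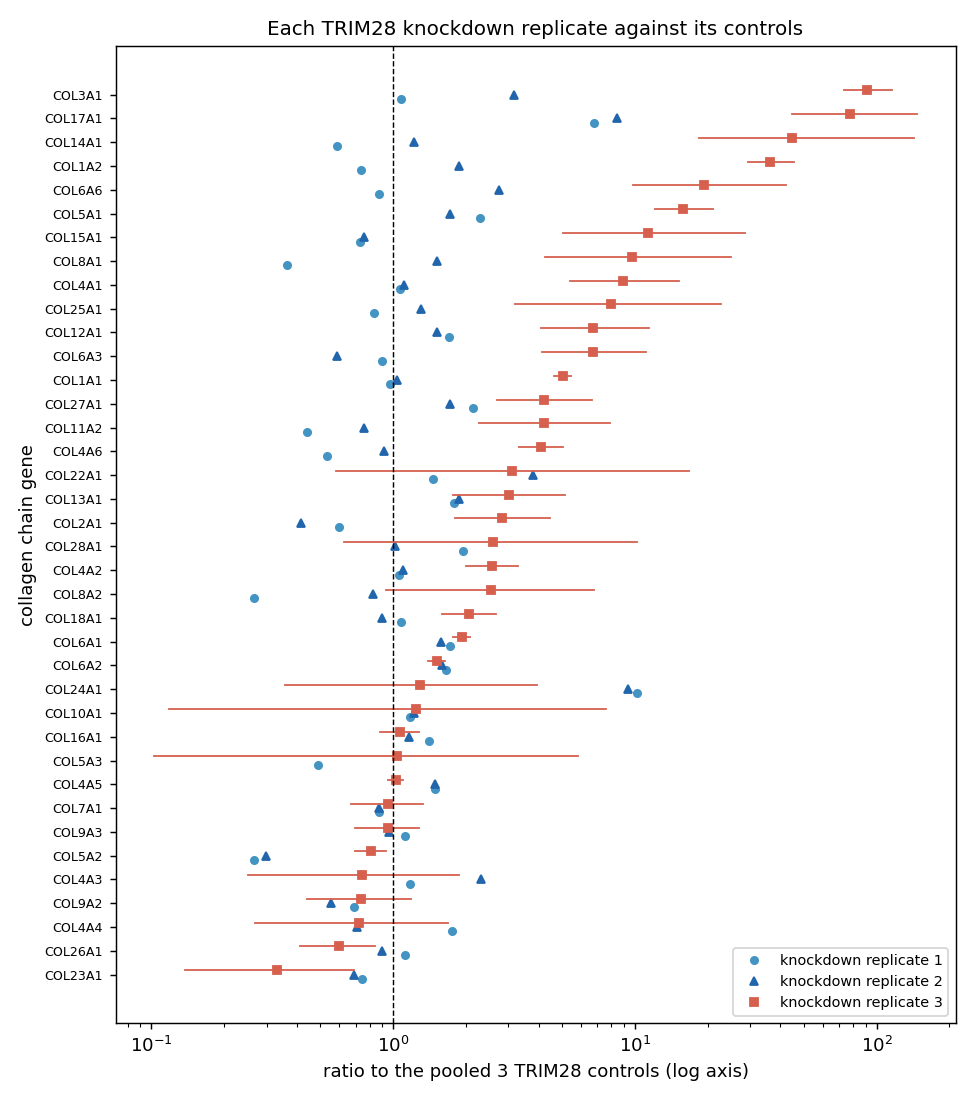
Ratio of each TRIM28 knockdown replicate to its 3 pooled controls (log axis, dashed line at 1) for the 38 collagen chain genes with more than 3 pooled control counts; bars are exact 95% counting intervals of replicate 3, and COL5A3 in replicate 2, which had 0 counts, is not drawn. Replicate 3 lies to the right of replicates 1 and 2 for most genes, up to 91.4-fold for COL3A1. It lies to the left of both for 8 genes, among them COL24A1, COL4A5, COL23A1 and COL26A1.

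Ratios were taken between 9 pairs of collagen chains that are made or assembled together, and those of replicate 3 were set against the range of the other 11 libraries. The FPKM of COL1A1 was 6.12 to 20.2 times that of COL1A2 in the other 11 libraries, with a median of 11.7, and 1.52 times in replicate 3. The ratio of COL1A1 to COL3A1 was 3.79 to 14.9 in the 11 and 0.639 in replicate 3. For the back-to-back pair COL4A5 and COL4A6 it was 17.8 to 62.5 in the 11 and 5.58 in replicate 3. COL6A1 and COL6A2 stayed closer, at 0.520 to 0.778 in the 11 and 0.853 in replicate 3. COL4A1 to COL4A2, COL6A1 to COL6A3 and COL5A1 to COL5A2 were the other pairs outside. COL4A1 to COL4A2 was at 0.513 against at most 0.435, from 2 to 15 COL4A1 counts in the other libraries. Some pairs share COL1A1 or COL6A1, and the ratios follow from the levels of the single genes given above. How often other pairs of genes lay outside the range was not counted, so the ratios do not single out collagen pairs. The pairs inside were COL4A3 and COL4A4, at 1.06 within 0.565 to 3.37, and COL9A3 and COL9A2, at 3.05 within 2.00 to 7.74.

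Some markers of other cell types were also high in replicate 3, and others were not. The 7 fibroblast and stromal markers that are not collagens (DCN, LUM, PDGFRA, PDGFRB, THY1, FBLN1 and POSTN) summed to 83.9 CPM in replicate 3 and to 18.5 to 25.3 CPM in the 11 other libraries, and in none of the 12 libraries were they all at 0. DCN was at 23.6 CPM against 0.668 to 1.82, and PDGFRA at 19.98 CPM against 0 to 1.22. LUM was at 12.6 CPM against 0.146 to 1.08, and POSTN at 2.18 CPM against at most 0.304. FBLN1 (22.2 CPM against at most 20.5) and PDGFRB (2.64 CPM against at most 2.29) were little above the others. THY1 was at 0.622 CPM, within the range of the others. The 5 endothelial markers summed to 16.7 CPM against 4.66 to 11.1, with KDR at 4.82 CPM against at most 0.546. CDH5 and TEK were also above all other libraries. VWF, the largest part of the sum, was at 9.10 CPM, below the 10.0 CPM of TRIM28 knockdown replicates 1 and 2. PECAM1 was at 0.311 CPM, within the range of the others. The 5 leukocyte markers summed to 1.63 CPM, within the range of 0.628 to 2.14, with CD3E at 0. The 8 luminal markers summed to 1854 CPM, under the lowest of the other libraries, but they did not all go the same way. KLK2, KLK3, STEAP2 and HOXB13 were below all other libraries, HOXB13 narrowly (194 against at least 205 CPM). FOLH1, TMPRSS2 and KRT18 were within the range of the others, with KRT18 at 178 CPM against 134 and 122 in TRIM28 knockdown replicates 1 and 2. KRT8 was at 88.0 CPM against 22.4 to 35.1. The part of any of these in the collagen values was not tested, and in bulk RNA a change in the number of cells of a type and a change in RNA per cell cannot be told apart.

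Genes that act on collagen were counted from 4 lists, to be read against the 26.1% higher and 26.3% lower of all tested genes in the FOXA1 knockdown, 13.3% and 13.3% in the TRIM28 knockdown, and 21.5% and 23.5% in the latter without replicate 3. Of the modifying enzymes and chaperones, 7 of 18 tested genes rose and 3 fell in the FOXA1 knockdown, and 3 of 17 rose and 2 fell in the TRIM28 knockdown. Without replicate 3 the latter became 4 higher and 6 lower. PLOD2, a lysyl hydroxylase, rose by a log2 fold change of 0.82 ± 0.05 and 1.16 ± 0.10 in the FOXA1 and TRIM28 knockdowns (adjusted p = 7.67e-14 and 0.000179, edgeR). The prolyl hydroxylase subunits rose likewise, P4HA2 by 0.87 ± 0.06 and 0.98 ± 0.10 and P4HA1 by 0.61 ± 0.04 and 0.65 ± 0.09. In the TRIM28 knockdown replicate 3 resembled its fellows here, with PLOD2 at 709, 688 and 646 CPM against 310 ± 43 (SD, n = 3) in the controls. FKBP10, a procollagen chaperone, fell by 1.03 ± 0.07 on the log2 scale in the FOXA1 knockdown, and CRTAP, a cofactor of prolyl hydroxylation, fell by 0.62 ± 0.14 in the TRIM28 knockdown.

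Of the procollagen proteases and crosslinking enzymes, 2 of 9 tested genes rose and 1 fell in the FOXA1 knockdown, and 1 of 9 rose in the TRIM28 knockdown, or 2 rose and 3 fell without replicate 3. TLL2, a tolloid-like protease, rose by 2.58 ± 0.14 in the FOXA1 knockdown. It measured 10.0, 8.44 and 3.19 CPM in the TRIM28 knockdown against 3.78 ± 0.48 (SD, n = 3) in the controls, so replicate 3 lay below replicates 1 and 2, and its log2 fold change of 0.95 ± 0.37 did not pass (adjusted p = 0.0816, edgeR) but was 1.3 ± 0.21 without replicate 3 (adjusted p = 3.59e-06, edgeR). BMP1, which trims procollagen ends, rose by 0.41 ± 0.10 and 0.62 ± 0.19, the second at an adjusted p of 0.0369 (edgeR), which became 0.116 to 0.133 without any 1 library other than knockdown replicate 3. ADAMTS3, which trims the other end, fell by 0.72 ± 0.27 on the log2 scale in the FOXA1 knockdown, where LOXL1 (-0.57 ± 0.32) did not pass. The ADAMTS3 call was lost without replicate 2 of the control or replicate 2 or 3 of the knockdown (adjusted p from 0.0603 to 0.0764). LOXL2 (1.08 ± 0.39) and PCOLCE2 (-0.64 ± 0.26) did not pass in the TRIM28 knockdown, and PCOLCE2 passed without replicate 3 (-0.75, adjusted p = 0.0149, edgeR).

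Of the collagen receptors, 3 of 6 tested genes rose and 2 fell in the FOXA1 knockdown, and 2 of 7 rose in the TRIM28 knockdown, or 2 rose and 1 fell without replicate 3. ITGA11, a collagen-binding integrin chain, rose by 3.11 ± 0.26 in the FOXA1 knockdown, from 0.809 ± 0.17 CPM to 7.43, 7.02 and 6.55 CPM. The receptor kinase DDR1 rose by 0.80 ± 0.06 and ITGA2 fell by 0.62 ± 0.07 there. ITGB1, the partner of these integrin chains, rose by 0.43 ± 0.04 and 0.40 ± 0.08 in the 2 knockdowns, and DDR2 by 1.19 ± 0.32 in the TRIM28 knockdown, where DDR1 (0.18 ± 0.09) and ITGA1 (-0.48 ± 0.23) did not pass. Without replicate 3 ITGA1 was lower and passed (-0.65, adjusted p = 0.03, edgeR). Of the degrading proteases and their inhibitors, 3 of 6 rose in the FOXA1 knockdown and 3 of 5 in the TRIM28 knockdown (4 of 5 without replicate 3), and 0 fell. TIMP2, an inhibitor of matrix metalloproteinases, rose by 2.08 ± 0.08 and 0.90 ± 0.14. The collagenase MMP13 rose by 1.54 ± 0.50 and 1.61 ± 0.44 from under 1 CPM, CTSK by 1.23 ± 0.24 in the FOXA1 knockdown and TIMP3 by 1.02 ± 0.29 in the TRIM28 knockdown. MMP14 (0.83 ± 0.40) in the first and TIMP1 (1.05 ± 0.38) in the second did not pass. Among the FOXA1 calls MMP13 was lost without replicate 3 of the control (adjusted p = 0.0718) or of the knockdown (adjusted p = 0.061). DDR2 and MMP13 lost their TRIM28 calls without control replicate 1 or 2 or knockdown replicate 2 (adjusted p from 0.0576 to 0.102), and TIMP3 without control replicate 2 or 3 or knockdown replicate 1 or 2 (adjusted p from 0.0505 to 0.104).

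The 2 knockdown effects, measured against different controls, were set side by side and their difference was tested in 1 fit of all 12 libraries. Among 27 tested members 1, COL23A1, differed, 3.70% of them, against 10.6% of 15921 genes tested (5.98% with the FOXA1 effect higher and 4.59% with it lower). COL23A1 measured 1.53, 2.08 and 2.04 CPM in the TRIM28 controls and 1.39, 1.29 and 0.622 CPM in that knockdown, below its controls in all replicates, whereas it was above its controls in the FOXA1 knockdown. The FOXA1 effect minus the TRIM28 effect was 1.61 ± 0.47 on the log2 scale (adjusted p = 0.0358, edgeR). The call was lost without any 1 of 7 of the 12 libraries: replicates 1 or 2 of the FOXA1 control, any replicate of the FOXA1 knockdown, or replicates 2 or 3 of the TRIM28 control (adjusted p from 0.0609 to 0.0848). Without replicate 3 of the TRIM28 knockdown 3 members differed, 11.1% against 21.4% of 16499 genes tested (12.7% higher and 8.64% lower): COL23A1 (1.35 ± 0.44, adjusted p = 0.0238, edgeR), COL5A2 (-0.93 ± 0.21, adjusted p = 0.000789, edgeR) and COL4A5 (-0.61 ± 0.09, adjusted p = 1.01e-06, edgeR). COL5A2 was thus lowered further by the FOXA1 than by the TRIM28 knockdown in that comparison, and COL4A5, at 78.8 to 87.4 CPM in all 6 controls and at 82.4, 84.7 and 79.3 CPM in the FOXA1 knockdown, was raised by the TRIM28 knockdown relative to it. For COL17A1 the difference was -1.03 ± 1.93 with replicate 3 and 1.02 ± 0.65 without it, and neither passed.

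**Figure D5:**
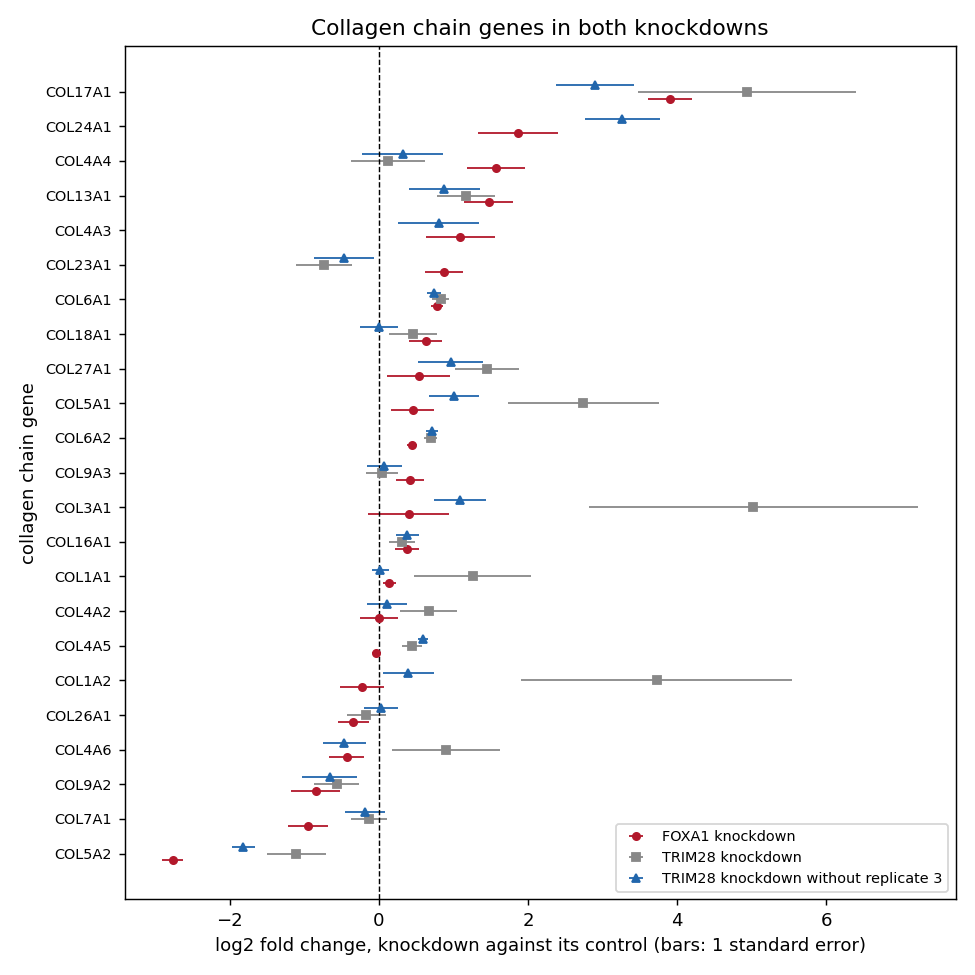
Log2 fold change (bars are 1 standard error) of the 23 collagen chain genes tested in the FOXA1 knockdown and in the TRIM28 knockdown without replicate 3, with the TRIM28 values of all 3 replicates where tested. COL5A2 lies furthest to the left in each fit; COL3A1, COL1A2, COL5A1 and COL1A1 carry wide bars in the TRIM28 knockdown only when replicate 3 is included.

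The 2 control groups were compared as a background. No member of 22 tested differed at an adjusted p below 0.05 by edgeR or DESeq2, and 0 of all 14839 genes tested did with either tool. At an unadjusted p below 0.05 edgeR counted 635 genes and 1 member, COL16A1, higher in the TRIM28 control by a log2 fold change of 0.58 ± 0.16 (adjusted p = 0.992). COL16A1 measured 8.42, 6.21 and 7.64 CPM in the FOXA1 controls and 12.7, 9.80 and 10.4 CPM in the TRIM28 controls, with no overlap, where 4.31% of all tested genes were separated in this direction and 8.63% in either.

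The 18 members tested in neither knockdown were COL4A1, COL5A3, COL6A5, COL6A6, COL8A1, COL8A2, COL9A1, COL10A1, COL11A1, COL11A2, COL14A1, COL15A1, COL19A1, COL20A1, COL21A1, COL22A1, COL25A1 and COL28A1. Outside TRIM28 knockdown replicate 3 none exceeded 15 counts in a library. The faintest were COL6A5, with 1 count in each of 2 libraries, COL19A1, with at most 2 counts, and COL9A1, with at most 3. Differences in these genes within either knockdown were not tested in the main fits, because their counts were low at this depth. COL4A1 entered the test of the difference between the knockdown effects and did not pass (adjusted p = 0.584, edgeR).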

How the data were processed

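Polyadenylated RNA of LNCaP cells was sequenced, per the labels' protocols. Raw counts of reads for each gene symbol were deposited by the authors in 1 table for each knockdown with its control, and FPKM values for all 12 libraries. For each of 11772 genes checked, the deposited FPKM was proportional across libraries to the count per library total, within a relative tolerance of 0.001. The gene lengths behind the FPKM were not checked, so FPKM comparisons between genes rest on the deposited values. The remaining genes were not checked. The genome build was GRCh38, per the submitters' processing notes, while for the aligner, counter, strand setting and annotation nothing was given in the sources used. Each table's 62710 lines hold 60835 symbols, each kept once. Some genotype labels name other gene numbers than FOXA1 and TRIM28, the titles of knockdown libraries also hold the word control ("SH control"), their table columns begin with SI, and the cell line field reads LACAP where the protocol has LNCaP. Control groups were therefore taken from titles (NC) and knockdown groups from treatment labels. All libraries carry batch label 1.

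Counts were fitted with edgeR 4.0.16 in R 4.3.3 (TMM scaling, filterByExpr with minimum count 10 and total 15, robust quasi-likelihood F-tests, two-sided, Benjamini-Hochberg adjustment over all tested genes, threshold 0.05) on each knockdown and its control. The difference between effects was a contrast over all 12 libraries. The fits were tested on simulated data with the same spread in every library and changes planted only in genes above 1 CPM. That does not cover a library that stands apart, such as TRIM28 knockdown replicate 3, or the lowest collagen genes. Errors after a fold change are standard errors. The series design calls the replicates biological but does not say that they were separate cultures, so p-values measure the spread between these samples. Total counts of 12256092 to 15152890 leave genes under about 10 counts untested. The members, gene lists and tests were chosen with earlier results of these data known. Every member tested in a knockdown is named, with values in each library where it was called without overlap at 1 CPM or more, and COL24A1, COL1A1, COL1A2, COL3A1, COL5A1 and COL17A1 in the TRIM28 knockdown were added after their values were seen. Up to 4 genes with the smallest p were named per list and knockdown. Alternatives were DESeq2 1.42.0, other scalings, no filter, a replicate block, a joint fit, a minimum fold change of 1.2 and leaving out each library. Of the luminal markers listed, 2 are not reported here.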

Additional observations from a re-analysis of the deposited data

Results flagged for a closer look

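COL23A1, a transmembrane collagen gene, was flagged because its effect differed between the 2 knockdowns by a test of the difference itself. The log2 fold change of the FOXA1 knockdown minus that of the TRIM28 knockdown was 1.61 (adjusted p = 0.0358, edgeR, all 12 libraries). It was the 1 call among 27 tested members, 3.70% of them, below the 10.6% of all tested genes. All 3 FOXA1 knockdown libraries were above their controls and all 3 TRIM28 knockdown libraries below theirs. The TRIM28 effect alone did not pass (-0.74, adjusted p = 0.171, edgeR). The call on the difference was lost when any single replicate of the FOXA1 knockdown was left out, and without several of the control libraries, as given above. It was also lost against a minimum fold change of 1.2. COL23A1 overlaps 3 genes on the opposite strand in GENCODE release 29.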

How the results depend on the processing

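The FOXA1 count of 12 members stayed between 9 and 14 under other scalings, tests and filters and between 10 and 12 without any 1 library. The TRIM28 count of 5 became 11 without the count filter, 11 in 1 fit of all 12 libraries (COL3A1, COL5A1, COL5A2, COL12A1, COL17A1 and COL24A1 gained) and 2 against a minimum fold change of 1.2, and ran from 2 to 9 without 1 library. The count of differences, 1, became 3 with DESeq2, 3 with library totals alone, 2 without the filter and 0 against a minimum fold change, and ran from 0 to 3 without 1 library. The control comparison stayed at 0. By CPM in place of FPKM, 17 members exceeded 1 rather than 8, since CPM does not divide by length.

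Replicate numbers did not pair the libraries: correlations of same-numbered libraries were -0.0201, 0.00541 and 0.0770 for FOXA1 and 0.000436, -0.0767 and 0.00569 for TRIM28. With the replicate number as a block, 12 members were called for FOXA1 (COL4A3 lost, COL16A1 gained), 6 for TRIM28 (COL13A1 and COL27A1 lost, COL17A1, COL5A1 and COL5A2 gained), 1 for the difference and 0 for the controls.

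COL4A2 in the FOXA1 knockdown, at -0.00066, turned to 0.0106 with DESeq2, 0.0127 with library totals, 0.00818 with RLE factors, 0.000603 without the filter, 0.0164 with the block and 0.00776 in the joint fit. Without 1 library, signs of uncalled values changed. In the FOXA1 knockdown COL1A2 ran from -0.42 to 0.0407, COL3A1 from -0.22 to 0.74, COL4A2 from -0.17 to 0.29, COL4A5 from -0.0777 to 0.00403 and COL6A3 from -0.0919 to 0.46. In the TRIM28 knockdown COL2A1 ran from -0.95 to 0.80, COL4A4 from -0.44 to 0.34, COL4A6 from -0.46 to 1.35, COL7A1 from -0.24 to 0.0241, COL9A3 from -0.0802 to 0.10 and COL26A1 from -0.39 to 0.0318. In the difference COL17A1 ran from -1.76 to 1.02 and COL6A1 from -0.11 to 0.0649. The cause of these changes was not tested. Members under about 10 counts per library could not be tested, and intervals cover counting error only.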
